A study of Homo sapiens with 3 samples.

Results

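KYSE510 is an established cell line grown from an esophageal squamous cell carcinoma, the tumour of the stratified lining of the esophagus. Its transcriptome after transfection with a control RNA is described here from 1 library, with no comparison between conditions. The members are the genes with 1 or more CPM, the read count of a gene scaled to all reads assigned to genes, where 1 CPM is 14.3 reads in this library. Of the 34908 genes listed, 12911 met that threshold, or 37.0%. Among the 19131 listed genes that code for protein, 11729 met it, or 61.3%.

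The study concerned DAZAP1, an RNA-binding protein that regulates splicing, and its part in autophagy, the recycling of cell contents in lysosomes. Total RNA was sequenced from KYSE510 cells that had received NC RNA, siDAZ1-1 or siDAZ1-2, each at 20 nmol/L with the transfection reagent INTERFERin. Each of these 3 conditions has 1 library, and the library with NC RNA is the one described. NC RNA is a negative control duplex that matches no human sequence, so the cells were transfected and the series has no library of untransfected cells.

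A stratified squamous epithelium is built by basal cells, which divide and are anchored to the basement membrane, and by upper layers that stop dividing. As cells move up they exchange basal keratins such as KRT5 and KRT14 for others, which in the normal esophagus are KRT4 and KRT13, and assemble an envelope of cross-linked proteins under the cell surface. Squamous carcinomas of the esophagus keep parts of this program, and often carry extra copies of regions on chromosomes 3 and 11 and take up much glucose.

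Marker genes of 11 tissues and cell types were set beside the label of the cells. All 12 markers of squamous epithelium had 1 or more CPM. Their median level was 125 TPM, the level per transcript length, which is the reads of a gene per base of its annotated exons, scaled to the same fixed sum over all genes with a known length. TPM is the scale used wherever genes are compared with each other. The highest squamous marker was SFN, which encodes the cell cycle checkpoint protein stratifin, at 1077 TPM, and the lowest was KRT6A at 28.6 TPM. These 12 markers were chosen with earlier results of these data known, so their levels are no independent check of the label of a squamous line. Other squamous genes, described further on, were low, among them KRT4 and IVL with 0 reads and SOX2 with 5.

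Markers of other tissues were mostly near 0. In glandular and intestinal epithelium 2 of 17 markers had 1 or more CPM, led by the transcription factor GATA6 at 6.04 TPM. In liver it was 1 of 8, the protease inhibitor SERPINA1 at 19.7 TPM, and in fibroblasts 1 of 10, the collagen gene COL1A1 at 9.74 TPM. None of 6 markers of the lung alveolus passed, the highest being NAPSA at 0.796 TPM. Leukocytes had 2 of 11 with CD3E highest at 4.10 TPM, erythroid cells 1 of 6 with ALAS2 at 2.43 TPM, and muscle 1 of 7 with MYH11 at 0.499 TPM. Endothelium had 3 of 7, led by EGFL7 at 28.9 TPM, and melanocytes 4 of 6, led by the transcription factor MITF at 10.5 TPM. Neuroendocrine cells and neurons had 2 of 9, and ENO2 stood out there at 439 TPM. ENO2 encodes an enolase, an enzyme of glycolysis, and also belongs to the glycolysis genes described further on. Because RNA was pooled from the whole culture, a low level in every cell and a high level in few cells cannot be told apart. Some markers with 0 reads share sequence with other genes, so their counts are no sure sign of absence. For CD68 and LYZ of leukocytes, 85.8% and 34.0% of exon bases overlap another gene. For HBA1 and HBA2 of erythroid cells, 80.7% and 81.4% of their words, short stretches of transcript sequence, occur in another gene. CD3D, PTPRC and TYROBP of leukocytes and AHSP of erythroid cells had 0 reads without such sharing.

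The library held 14283061 reads assigned to genes. At this depth the threshold fell between genes with 15 reads and genes with 14. At 15 reads stood 73 members, with 1.05 CPM and an exact 95% Poisson interval of 8.40 to 24.7 reads. At 14 reads stood 77 genes just outside, with 0.980 CPM and an interval of 7.65 to 23.5 reads, so the 2 groups do not differ beyond counting error. A gene with 0 reads is compatible with up to 3 reads, or 0.210 CPM. All such intervals and floors cover counting error only, since there is 1 library and copies made by amplification are not independent molecules.

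The members held 99.9% of the reads. A further 5464 genes had reads but stayed under 1 CPM, and 16533 genes had 0 reads. Among protein-coding genes 4399 had 0 reads. Few long noncoding genes were listed, and 24 of 222 lincRNA genes and 27 of 142 antisense genes had 1 or more CPM. Sequence shared with other genes went with fewer members, since 45.7% of the 3041 protein-coding genes that share 20% or more of their 50-base words or exon bases were members, against 64.3% of the others. The median member had 538 reads, far above the threshold, so for most members the counting error was small.

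Reads were spread over many genes. The 10 most read genes took 3.55% of all reads, with a Clopper-Pearson interval of 3.54 to 3.56%. The 100 most read took 12.96%, the 1000 most read 42.3%, and it needed 1424 genes to reach 50%. These shares are of reads and not of TPM, and the mitochondrial genes, all at 0 reads, are not covered by them. Over protein-coding genes alone the shares were lower, 3.12% for the first 10 genes and 12.4% for the first 100.

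Levels of the protein-coding members were centred on a median of 29.2 TPM, with quartiles of 11.2 and 65.1 TPM. Over all protein-coding genes, silent ones included, the median was 7.63 TPM, and this is the value that the gene lists are set beside. Counts of list genes with 1 or more CPM are to be set beside the 61.3% of all protein-coding genes. Most members, 7330 or 62.5%, lay between 10 and 100 TPM. Another 1683 lay between 100 and 1000 TPM and carried 49.5% of the summed TPM. Above 1000 TPM stood 41 genes, or 0.350% of the protein-coding members, with 9.65% of the sum. At the low end 233 members had less than 1 TPM, which happens when a long gene collects 15 or more reads.

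**Figure D1:**
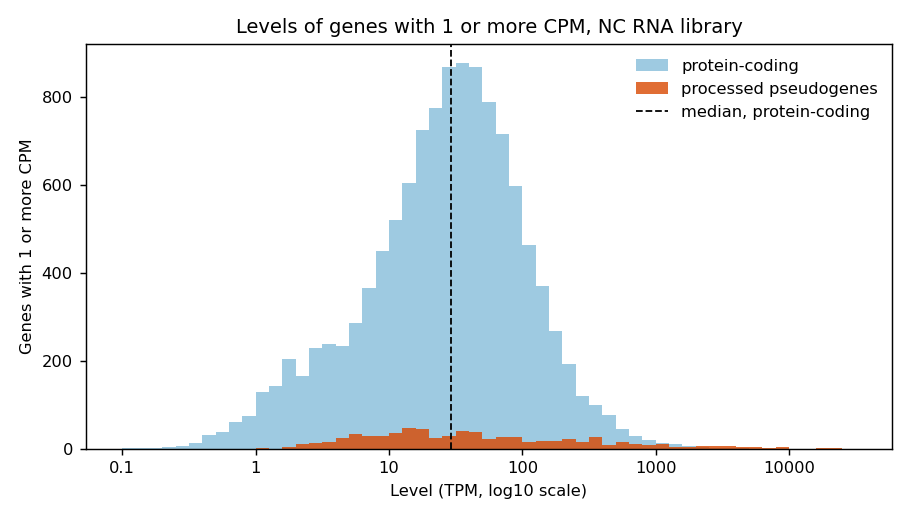
Number of genes with 1 or more CPM at each level, in TPM on a log scale, for protein-coding genes and processed pseudogenes of the NC RNA library; the dashed line marks the protein-coding median of 29.2 TPM. Protein-coding genes form 1 broad peak, while processed pseudogenes spread thinly and reach higher levels than any protein-coding gene.

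Protein-coding members came from every nuclear chromosome considered. The share of protein-coding genes with 1 or more CPM was highest on chromosome 22 at 67.9% and lowest on X at 47.0%. Chromosome 21 had 50.9%, and chromosome 11, which carries many olfactory receptor genes, had 54.6%.

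Mitochondrial DNA encodes 13 proteins of the respiratory chain, whose transcripts usually take a large share of RNA in carcinoma cells. All 13 genes were listed at 0 reads. A count of 0 allows up to 3 reads for each, which for MT-CO1, a catalytic subunit of cytochrome oxidase, is 0.504 TPM. Mitochondrial levels can therefore not be read from these counts, and why they are 0 is not stated. Respiration is described below through its nuclear genes only.

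Processed pseudogenes are copies of spliced messenger RNAs that were reverse transcribed into the genome, and most are not themselves transcribed. They matter here because their sequence is close to that of the gene they were copied from. Of 10178 listed, 712 had 1 or more CPM (6.995%). Together the listed ones took 659580 reads, which is 4.62% of the reads (interval 4.61 to 4.63%). Being short, they took 26.1% of the summed TPM, against 73.2% for protein-coding genes.

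By TPM, 14 of the 15 highest nuclear genes were processed pseudogenes. EEF1A1P5 (ENSG00000196205), a copy of the translation elongation factor gene EEF1A1, led with 116536 reads and 21739 TPM. RPL41P1 followed at 17348 TPM, RPL13AP5 at 9857 TPM and RPL39P3 at 9389.5 TPM, all copies of ribosomal protein genes. PPIAP22, a copy of the cyclophilin gene PPIA, had 9365 TPM. Next came RPL7AP6 at 6644 TPM, ENSG00000218426 at 6005 TPM, whose closest coding gene was RPL27A, and ANXA2P2 at 5416 TPM. RPL36AP37 had 5352 TPM and RPL26P19 5078 TPM. The only protein-coding gene among the 15 was TMSB10 at 4656 TPM, and after it came RPLP0P6 at 4384 TPM, NPM1P27 at 4366 TPM, RPL3P4 at 4240.2 TPM and RPL4P4 at 4013 TPM.

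Each processed pseudogene with 1 or more CPM was aligned to the transcripts of all protein-coding genes, and 676 of the 712 had a match. In 117 of these pairs the pseudogene had more reads than its closest coding gene, and those pseudogenes held 75.05% of the matched pseudogene reads. From 90% identity up, reads rose with similarity. The median was 572 reads for the 101 pseudogenes at 99% identity or more, 279 reads for 121 at 98 to 99%, 97.5 reads for 306 at 95 to 98%, and 32 reads for 105 at 90 to 95%. Of the 101 closest copies, 46 had more reads than the gene itself. How reads that fit several genes were assigned is not stated, and the 2 sources of a read cannot be told apart from gene counts.

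The sequences show how little separates such pairs. EEF1A1 and EEF1A1P5 differ at 4 of 1389 coding bases, T294C, T720C, T933G and C1094T, with positions counted from the A of the start codon, the gene first and the copy second. A read between the sites fits both. Bases 175 to 294 are shown, with the 1 base that differs in capitals.
EEF1A1: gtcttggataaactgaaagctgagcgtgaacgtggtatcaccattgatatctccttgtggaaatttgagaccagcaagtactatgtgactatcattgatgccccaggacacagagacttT
EEF1A1P5: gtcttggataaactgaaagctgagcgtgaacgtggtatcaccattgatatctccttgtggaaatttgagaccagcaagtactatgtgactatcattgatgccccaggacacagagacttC

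EEF1A1 kept 7503 reads of its own beside 125340 on 4 pseudogenes, so its own share of the pooled reads was 5.65%. With the pseudogene reads added its level would be 5787 TPM in place of 327 TPM. RPL39, for a protein of the large ribosomal subunit, had 76 reads beside 5653 on its copy RPL39P3.

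ANXA2 encodes annexin A2, a calcium-dependent membrane protein that pairs with S100A10, and differs from ANXA2P2 at 16 of 1020 coding bases. The gene had 6207 reads and the copy 21321. A stretch with 5 of the differences, bases 101 to 220, shows them in capitals.
ANXA2: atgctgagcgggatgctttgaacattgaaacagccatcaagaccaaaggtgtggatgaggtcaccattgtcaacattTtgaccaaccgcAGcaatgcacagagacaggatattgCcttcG
ANXA2P2: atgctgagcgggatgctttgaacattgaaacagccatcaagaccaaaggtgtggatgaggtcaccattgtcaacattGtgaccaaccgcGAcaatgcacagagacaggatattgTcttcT

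Ribosomal protein genes were often affected. Of 85 such genes, counting their coding variants, 80 had 1 or more CPM. Their median level was 156 TPM from their own reads and 485 TPM with the reads of their pseudogenes. In 37 of the 61 with a processed pseudogene at 1 or more CPM, the pseudogenes held more reads than the gene. RPL7 had 107 reads of its own beside 13679, and RPS3A 114 beside 10063. Levels of genes with close copies are thus uncertain in these counts.

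**Figure D2:**
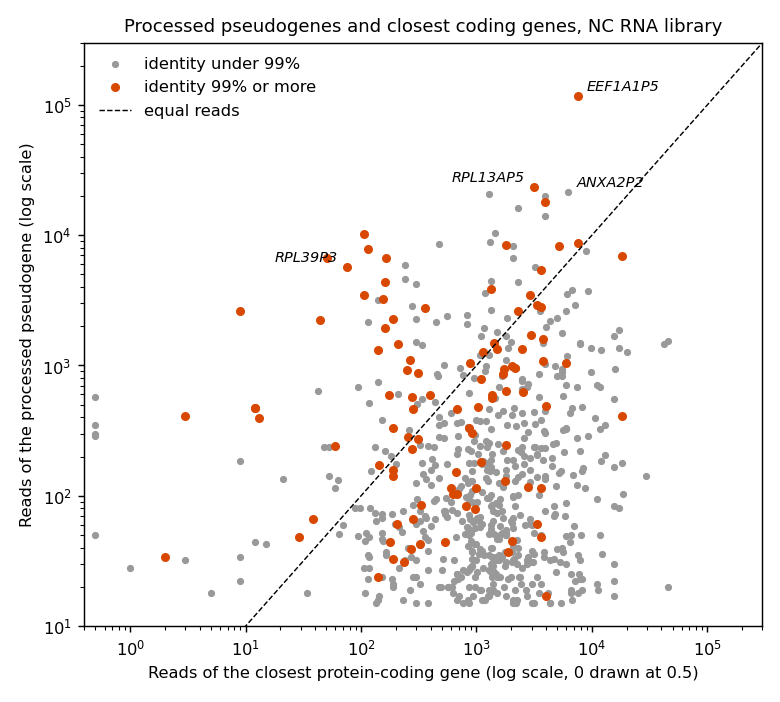
Reads of each processed pseudogene with 1 or more CPM against reads of its closest protein-coding gene in the NC RNA library, both on log scales; points above the dashed line have more reads on the pseudogene. Of the 101 pairs with 99% identity or more, 46 lie above the line.

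Among protein-coding genes, the top of the list mixed cytoskeleton, metal binding, translation and glycolysis. TMSB10 (ENSG00000034510), for thymosin beta, which binds actin monomers, had 4656 TPM. GAPDH (ENSG00000111640), for the central dehydrogenase of glycolysis, had 3976 TPM. MT2A (ENSG00000125148), for a metallothionein that binds zinc and copper, had 3690.2 TPM. After them came the elongation factor gene EEF2 at 2969.9 TPM and the actin gene ACTB at 2591 TPM, and the galectin gene LGALS1 at 2303 TPM. MT2A, EEF2 and LGALS1 were chosen for naming after their values were seen.

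By reads alone the order was different, since TPM divides the reads by the length of all annotated exons of a gene. NDRG1 (ENSG00000104419), a stress gene induced by hypoxia and by differentiation, was the most read protein-coding gene with 81466 reads, 5704 CPM, and ranked 8th by TPM at 2149 TPM. EEF2 and GAPDH followed with 46156 and 45742 reads. The exon length used was 9823 bases for NDRG1, 4027 for EEF2 and 2981 for GAPDH.

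The squamous program was examined as 8 gene lists with 135 genes in all. Of these, 6 are keratins of simple, single-layered epithelium, so the totals are not of squamous genes only. Keratins form the filaments, desmosomes and hemidesmosomes anchor them to neighbouring cells and to the basement membrane, transcription factors set the program, and envelope proteins mark the last steps of differentiation. Of the 135 genes 85 had 1 or more CPM (63.0%), close to the 61.3% of all protein-coding genes, with a median of 10.6 TPM. That median was 1.39 times the 7.63 TPM of all protein-coding genes, but under theirs when coding length or no length was used. It also hides a sharp split between lists of anchoring genes, which were high, and lists of late differentiation, which were low.

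Keratins pair as 1 type I and 1 type II chain, and each layer of an epithelium has its own pairs. In the list of basal and stressed squamous cells 6 of 8 keratins had 1 or more CPM, with a median of 63.8 TPM. KRT5 (ENSG00000186081), the type II keratin of basal cells, led with 9714 reads and 586 TPM (interval 575 to 598). Its usual partner KRT14 had 109 TPM, KRT15 100.3 TPM and KRT17 99.1 TPM, and the intervals of KRT15 and KRT17 overlap. Type I chains of this list thus each stayed under KRT5, and added up to less than it.

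KRT6A and KRT16 mark wounded and hyperproliferative squamous cells. They were lower, at 28.6 TPM from 323 reads and 18.4 TPM from 176 reads. KRT6B had 2 reads, 0.227 TPM (interval 0.0275 to 0.820), and KRT6C had 0 reads, which allows up to 0.268 TPM. These genes are near copies, so reads they share may have been placed on any of them or left out. Of the 50-base words in their transcripts, 32.1% in KRT6A, 47.1% in KRT6B and 44.4% in KRT6C occur in another gene as well. Over 1695 coding bases KRT6A differs from KRT6B at 43 and from KRT6C at 35, and bases 626 to 745 are shown because they hold a cluster of these differences, in capitals.
KRT6A: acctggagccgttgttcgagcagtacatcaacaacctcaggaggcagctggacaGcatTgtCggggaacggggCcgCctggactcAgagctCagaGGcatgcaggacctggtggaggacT
KRT6B: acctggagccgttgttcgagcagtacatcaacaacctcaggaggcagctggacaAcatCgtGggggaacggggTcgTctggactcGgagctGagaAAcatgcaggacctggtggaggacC
KRT6C: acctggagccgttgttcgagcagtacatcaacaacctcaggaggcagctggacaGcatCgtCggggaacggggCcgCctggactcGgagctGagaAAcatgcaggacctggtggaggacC

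Keratins of upper squamous layers were largely silent, with 3 of 11 at 1 or more CPM and a median of 0.0795 TPM. KRT13 had 5 reads, 0.445 TPM, and its esophageal partner KRT4 had 0 reads, with a limit of 0.235 TPM. The epidermal chains KRT1 and KRT2 and the corneal chain KRT12 also had 0 reads, as did KRT76 of the oral mucosa. KRT3 had 4 reads and KRT78 1 read. The 3 that passed were KRT80 at 73.7 TPM, KRT10 at 12.3 TPM and KRT9 at 2.26 TPM. KRT80 is a broadly expressed filament protein near desmosomes, so the pair that defines the upper esophageal lining was not detectable or nearly so.

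Keratins of simple, single-layered epithelium divided in the same manner. KRT8 had 591 TPM (interval 581 to 600.0), a level that overlaps that of KRT5, and its partner KRT18 had 242 TPM. By reads KRT8 was higher than KRT5, with 15686 reads against 9714. KRT7 had 4.11 TPM. KRT19 had 5 reads and KRT20 3 reads, at 0.555 and 0.421 TPM, and KRT23 had 0 reads. Only the KRT8 and KRT18 pair was thus high, beside the basal keratins.

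**Figure D3:**
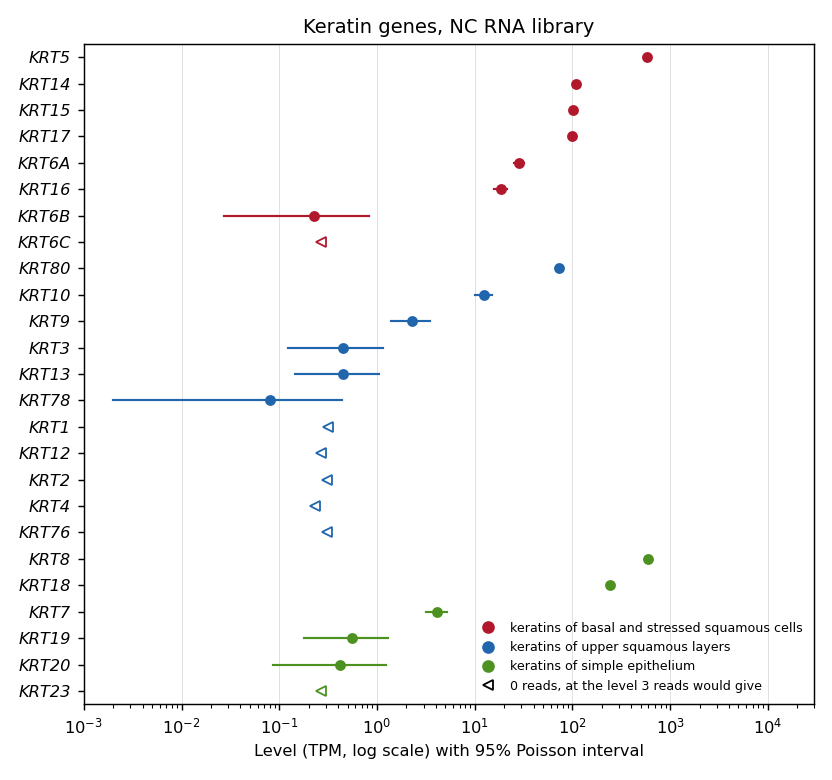
Level of each keratin gene in TPM on a log scale in the NC RNA library, with its 95% Poisson interval; open triangles mark genes with 0 reads, drawn at the level 3 reads would give. KRT5 at 586 TPM and KRT8 at 591 TPM lead, and most keratins of upper layers lie under 1 TPM.

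Of 22 transcription factors of squamous cells 21 had 1 or more CPM, with a median of 20.8 TPM. SOX15, a SOX factor of keratinocytes, led at 291 TPM. TP63 (ENSG00000073282), the master regulator of stratified epithelium, had 3997 reads and 139 TPM (interval 135 to 143). FOXM1, which drives mitotic genes, had 129 TPM. The exception was SOX2, a factor of the esophageal lineage whose gene is often amplified in squamous carcinoma, with 5 reads and 0.516 TPM (interval 0.167 to 1.203). Among factors of terminal differentiation, chosen after their values were seen, GRHL3 had 1.38 TPM and ZNF750 1.26 TPM, near the bottom of the list.

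By list median, anchoring structures were the strongest squamous component. Hemidesmosomes fix basal cells to laminin-332 in the basement membrane, and all 12 genes of this list had 1 or more CPM, with a median of 177 TPM. LAMB3 (ENSG00000196878), for a chain of laminin-332, led at 870.1 TPM. The integrin chain gene ITGB4 had 420.2 TPM and the transmembrane collagen gene COL17A1 309 TPM. The lowest of the 12 by TPM was DST at 73.9 TPM. Invasive squamous carcinomas are known for laminin-332 at their edge, and here LAMB3 was the highest gene of the list.

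Desmosomes join neighbouring cells, and 11 of 14 of their genes had 1 or more CPM, with a median of 106 TPM. The plaque proteins led, JUP for plakoglobin at 308 TPM and DSP for desmoplakin at 299.9 TPM. The cadherin gene DSG2 had 254 TPM and PERP, a membrane protein under TP63, 220.3 TPM. The cadherins of the upper epidermis were missing or nearly so, with 4 reads for DSC1 and 0 for DSG1 and DSG4.

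S100 proteins bind calcium, and several of their genes sit in the differentiation cluster of chromosome 1. Of 19, 10 had 1 or more CPM and the median was 5.81 TPM, but the leading members were extreme. S100A11 (ENSG00000163191) had 2047 TPM and S100A10 (ENSG00000197747), the partner of annexin A2, 1914 TPM. S100A2, a p63 target of basal cells, had 627 TPM and S100A6 619 TPM, with overlapping intervals. S100A7, S100A7A, S100B, S100P and S100Z had 0 reads and S100A12 1 read. The list thus joined very high members with silent ones.

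Late differentiation was low for most genes. The cornified envelope is the protein shell laid down under the membrane of the uppermost cells, and 19 of its 44 genes had 1 or more CPM, with a median of 0.701 TPM. ANXA1, for annexin A1, which is also made by many other cells, led at 801 TPM. The plakin gene PPL had 117 TPM, the membrane protein gene EMP1 106 TPM and the protease gene KLK5 103 TPM. IVL for involucrin had 0 reads, with a limit of 0.361 TPM, and so did CRNN for the esophageal protein cornulin, with a limit of 0.409 TPM. CALML5, DSG1, KLK7 and KLK13 also had 0 reads. In all, 14 genes of the list had 0 reads.

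Epithelial organization beyond the squamous lineage was examined in 6 lists. Adherens junctions hold cells together through E-cadherin, tight junctions seal the space between them, and loss of both together with gain of mesenchymal genes is called epithelial-mesenchymal transition. Of 88 genes 64 had 1 or more CPM (72.7%), against 61.3% of all protein-coding genes, with a median of 19.7 TPM. Adherens junction and identity lists were high, the tight junction list was mixed and the mesenchymal lists were low.

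All 10 adherens junction genes had 1 or more CPM, with a median of 128 TPM. CDH1 (ENSG00000039068), for E-cadherin, had 384 TPM, and CDH3, for the P-cadherin of basal cells, 348 TPM. The catenin genes CTNNA1 and CTNND1, whose proteins hold cadherins to actin and stabilize them, had 236 and 222 TPM. CDH2, for the N-cadherin of mesenchymal cells, had 1 read, 0.0523 TPM. Of these 3 cadherins, the 2 epithelial ones were thus expressed.

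Tight junction genes were mixed in level, with a median of 18.8 TPM. Of 19, 12 had 1 or more CPM (63.2%), close to the 61.3% of all protein-coding genes. Among claudins, the pore and barrier proteins, CLDN4 had 317 TPM, CLDN12 194 TPM and CLDN7 104 TPM. CLDN1, a main barrier claudin of stratified epithelium, had 0 reads with a limit of 0.212 TPM, and it shares no 50-base word with another gene. CLDN8 had 0 reads, CLDN10 1 read, CLDN2 3 reads, and CLDN6 and CLDN11 4 reads each.

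All 14 other genes of epithelial identity had 1 or more CPM, with a median of 161 TPM. SFN (ENSG00000175793) led at 1077 TPM. The hyaluronan receptor gene CD44 had 438 TPM and the adhesion gene EPCAM 319 TPM. High EPCAM is common in proliferating carcinoma cells and rare in mature squamous layers.

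Transcription factors of epithelial-mesenchymal transition were low, with 4 of 9 at 1 or more CPM and a median of 0.154 TPM. SNAI2, which also acts in basal keratinocytes, had 54.2 TPM and TWIST1 23.1 TPM. ZEB1 had 2.79 TPM and TCF4 2.52 TPM. SNAI1 had 1 read, PRRX1 2 reads, ZEB2 6 reads, and FOXC2 and TWIST2 0 reads. SNAI2 and TWIST1 were thus highest per length, although TCF4, a long gene, had 271 reads and TWIST1 181 reads.

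Mesenchymal structural genes were low as well. Of 19, 9 had 1 or more CPM, with a median of 1.03 TPM. FN1 for fibronectin led at 40.3 TPM, then the gelatinase gene MMP2 at 19.4 TPM and the collagen genes COL6A1 at 10.4 TPM and COL1A1 at 9.74 TPM. COL3A1 and DCN had 1 read each, and COL1A2, COL5A1 and FAP had 0 reads. COL1A1 was thus present without the second chain of its fibril. VIM for vimentin, chosen after its value was seen, had 3.32 TPM.

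Proteases and their inhibitors shape how carcinoma cells cross matrix. Of 17 genes in this list 15 had 1 or more CPM, with a median of 20.1 TPM. PLAU, for the secreted protease urokinase, had 502 TPM. The membrane-bound metalloprotease gene MMP14 had 283 TPM and the inhibitor gene TIMP1 251 TPM. TIMP3 had 9 reads and MMP7 4 reads. Proteases of the matrix and their inhibitors were therefore expressed together.

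Metabolism was examined in 15 lists with 304 genes. Of these, 261 had 1 or more CPM (85.9%), against 61.3% of all protein-coding genes, and the median was 69.0 TPM. This was the highest median of the 4 programs, at 9.04 times that of all protein-coding genes. Glycolysis turns glucose into pyruvate and lactate, the tricarboxylic acid cycle and the respiratory chain oxidize what remains, and biosynthetic pathways draw carbon from both. The 304 genes include the 13 of the mitochondrial genome, whose 0 reads cannot be read as levels. Without them 261 of 291 genes had 1 or more CPM (89.7%), with a median of 73.2 TPM. Most nuclear lists were broadly expressed, with liver-type glucose enzymes as an exception.

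Glycolysis had the highest median of all lists. All 22 genes of glucose entry and glycolysis had 1 or more CPM, with a median of 429 TPM and a sum of 18053 TPM. GAPDH led at 3976 TPM, and ALDOA for aldolase A had 2230.0 TPM, with 53.5% of its exon bases overlapping another gene. LDHA (ENSG00000134333), which turns pyruvate into lactate, had 1760.05 TPM from 42182 reads. PGK1, for phosphoglycerate kinase, had 1449.6 TPM.

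The entry and exit of the pathway can be followed through its paired genes, which were chosen after their values were seen. The glucose transporter genes SLC2A1 and SLC2A3 had 418 and 333 TPM, and the hexokinase genes HK2 and HK1 554 and 313 TPM. LDHB, whose product favours the reverse reaction of lactate to pyruvate, had 1332 TPM, less than LDHA, and 33.4% of its exon bases overlap another gene. The lactate carriers SLC16A1 and SLC16A3 had 319 and 129.7 TPM. Since these genes were picked with their levels known, no pattern is drawn from them.

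The opposite route, making glucose, was nearly absent. Of 9 genes for gluconeogenesis and liver glucose enzymes 3 had 1 or more CPM, with a median of 0.0818 TPM. PC for pyruvate carboxylase had 25.5 TPM and the mitochondrial PCK2 21.2 TPM, both of which also feed other pathways. FBP1, PKLR and SLC2A2 had 1 read each. G6PC1 and PCK1 had 0 reads.

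The pentose phosphate pathway makes NADPH and ribose. Of its 8 genes 7 had 1 or more CPM, with a median of 87.8 TPM. TKT for transketolase led at 344 TPM, then PGD at 188 TPM and TALDO1 at 122 TPM. TKTL1 had 0 reads. Both the oxidative step of PGD and the sugar exchanges of TKT and TALDO1 were expressed.

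Mitochondrial oxidation followed at lower levels than glycolysis. All 24 genes of the tricarboxylic acid cycle had 1 or more CPM, with a median of 113 TPM. MDH2 for mitochondrial malate dehydrogenase led at 495 TPM. SDHD had 193 TPM, IDH3B 184 TPM and the cytosolic MDH1 179.9 TPM.

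Of 38 nuclear genes of complex I, which takes electrons from NADH, 37 had 1 or more CPM, with a median of 51.8 TPM. NDUFS5 led at 509 TPM and NDUFB7 at 401 TPM, then NDUFB10 at 271 TPM and NDUFB11 at 241 TPM. NDUFA7 had 13 reads, and 33.5% of its exon bases overlap another gene. Of 39 nuclear genes of complexes III to V, 34 had 1 or more CPM, with a median of 97.4 TPM. ATP5F1B, the catalytic chain of the ATP synthase, led at 1819 TPM and its neighbour in the complex ATP5F1C had 589 TPM. COX6B1 had 444 TPM and COX5B 356 TPM. The genes under the threshold included the muscle and lung variants COX6A2 and COX4I2 with 0 reads, COX7A1 with 5 and COX6B2 with 13 reads. ATP5ME had 5 reads, with 61.6% of its exon bases overlapping another gene. Most nuclear respiratory genes thus had 1 or more CPM. Among the others, the share of exon bases overlapped ran from 0% for COX7A1 and COX4I2 to 61.6% for ATP5ME. NDUFB11, at 241 TPM, had 44.9%. Why some genes stayed under the threshold was not tested.

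Lipid synthesis was expressed more than lipid breakdown. In fatty acid synthesis and desaturation 15 of 16 genes had 1 or more CPM, with a median of 81.8 TPM. SCD, which makes monounsaturated fatty acids, had 386 TPM, the elongase gene ELOVL5 376 TPM, ACLY, which makes cytosolic acetyl-CoA, 293 TPM, and FASN for fatty acid synthase 171 TPM. ACACB had 9 reads. Of 24 genes of cholesterol synthesis and uptake 21 had 1 or more CPM, with a median of 59.2 TPM, led by MSMO1 at 229 TPM and IDI1 at 216 TPM. EBP, for a sterol isomerase, had 183 TPM. DHCR7, for a late reductase of the pathway, had 1 read, 0.0623 TPM (interval 0.00158 to 0.347), and shares no sequence word with another gene. ACAT2 had 7 reads, with 52.3% of its exon bases overlapped.

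Fatty acid oxidation, with 12 of 14 genes at 1 or more CPM, had a median of 8.84 TPM, just above the 7.63 TPM of all protein-coding genes. That closeness holds per exon length, and without length the list stood further above. ECHS1 had 277 TPM, ACADVL 273 TPM, HADHA 137 TPM and HADHB 129.98 TPM, and these encode the long-chain and shared steps. CPT1C had 8 reads and ACADS, for short chains, 3 reads. Levels within the list thus ranged widely.

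Amino acids feed nucleotides, glutathione and protein synthesis. All 24 genes of glutamine, serine and one-carbon metabolism had 1 or more CPM, with a median of 56.7 TPM. GOT2 led at 300.4 TPM, PSAT1 of serine synthesis had 172 TPM, GLUD1 167 TPM and ALDH18A1 of proline synthesis 141 TPM. Of 11 amino acid transporters 9 had 1 or more CPM, with a median of 24.6 TPM. SLC7A5 and SLC3A2, the 2 chains of the large neutral amino acid exchanger that supplies mTOR with leucine, had 567 and 210.1 TPM, and the glutamine carriers SLC38A2 and SLC38A1 had 220.3 and 153 TPM. SLC7A8 had 2 reads and SLC43A1 0 reads. All 19 genes of nucleotide synthesis had 1 or more CPM, with a median of 62.6 TPM, led by IMPDH2 of guanine nucleotide synthesis at 531 TPM. PRPS2 had 317 TPM, and RRM2 and RRM1, the ribonucleotide reductase chains, 242 and 219 TPM.

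NRF2, the product of NFE2L2, turns on genes against oxidants and is often activated in esophageal squamous carcinoma. The list of 26 genes holds its targets, NFE2L2 itself and the regulator gene KEAP1. Of these, 21 had 1 or more CPM, with a median of 48.3 TPM. FTL for ferritin light chain had 2086 TPM, TXN for thioredoxin 1351 TPM, PRDX1 for a peroxiredoxin 949 TPM and FTH1 for ferritin heavy chain 315 TPM. FTH1 had 2469 reads beside 3280 on 5 pseudogenes, and 62.4% of its exon bases overlap another gene. The aldo-keto reductase genes AKR1C1, AKR1C2 and AKR1B10 had 1, 2 and 9 reads, GPX2 had 13 reads and SRXN1 1 read. For SRXN1, 84.7% of its words occur in another gene, and for AKR1C1 and AKR1C2 28.6% and 38.9%. The list thus joined some of the highest genes of the library with genes near 0.

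Hypoxia response genes are switched on by HIF factors when oxygen falls. Of 20 genes 16 had 1 or more CPM, with a median of 53.1 TPM. NDRG1 had 2149 TPM, DDIT4, an inhibitor of mTOR, 455 TPM, BNIP3L of mitophagy 348 TPM and the peptide hormone gene ADM 210.5 TPM. ANGPTL4, CA12 and EGLN3 had 0 reads and LOX 14 reads. CA9, a common hypoxia marker chosen after its value was seen, had 106 TPM. Whether oxygen was low in the culture was not measured.

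Oncogenic programs were examined in 20 lists with 324 genes. Of these, 275 had 1 or more CPM (84.9%), against 61.3% of all protein-coding genes, with a median of 35.4 TPM. Growth factor receptors signal through RAS and PI3K, cyclins and their kinases open the cell cycle, and tumour suppressors restrain it. Of the 20 lists 18 had a median above that of all protein-coding genes. The EGFR ligands and the cancer-testis antigens were the 2 lists under it.

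EGFR family receptors drive squamous growth. EGFR (ENSG00000146648) had 15363 reads and 318 TPM (interval 313 to 323). ERBB3 had 55.1 TPM, ERBB2 28.5 TPM and ERBB4 3 reads, 0.0597 TPM. EGFR was thus far above its 3 relatives. Of 10 ligands 6 had 1 or more CPM, with a median of 1.89 TPM. TGFA and HBEGF, which bind EGFR, had 78.5 and 34.2 TPM, and the ERBB3 and ERBB4 ligands NRG1 and NRG4 had 11.8 and 4.69 TPM. AREG had 10 reads, EPGN 7, EREG 4 and EGF 0 reads. At least 2 EGFR ligands were thus expressed in the same culture as the receptor.

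Among 18 other growth factor receptors 15 had 1 or more CPM, with a median of 55.5 TPM. The collagen receptor gene DDR1 led at 745 TPM. AXL had 232 TPM, the protease receptor gene F2RL1 204 TPM and MET 177 TPM. FGFR1 had 12 reads, KIT 3 reads and PDGFRA 0 reads.

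Downstream, all 24 genes of the RAS and ERK pathway had 1 or more CPM, with a median of 53.4 TPM. NRAS had 219.7 TPM, MAP2K1 174 TPM, the adaptor gene SHC1 113 TPM and MAPK3 86.2 TPM. In the PI3K, AKT and mTOR list 19 of 20 had 1 or more CPM, with a median of 24.8 TPM. EIF4EBP1, a repressor of translation under mTOR, stood at 322 TPM, well above PIK3CB at 55.4 TPM, MLST8 at 48.8 TPM and RICTOR at 45.6 TPM. PIK3R2 had 4 reads, but 87.2% of its exon bases overlap another gene.

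Regions on chromosome 11, at 11q13, and chromosome 3, at 3q26 to 3q28, are the gains best known in squamous carcinoma, and expression alone does not measure copy number. Of 10 genes at 11q13 7 had 1 or more CPM, with a median of 10.2 TPM. CTTN, for the actin regulator cortactin, had 239 TPM, and CCND1 (ENSG00000110092), for cyclin D1, had 192 TPM. PPFIA1 had 52.4 TPM, FADD 15.1 TPM with 54.9% of its exon bases overlapped, LTO1 14.2 TPM, SHANK2 6.25 TPM and ANO1 1.16 TPM. FGF3, FGF4 and FGF19 had 0 reads. Neighbouring genes of this region thus ranged from 0 reads to over 200 TPM.

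Of 13 genes at 3q26 to 3q28, 11 had 1 or more CPM, with a median of 86.7 TPM. The translation factor gene EIF4G1 had 325 TPM, the exchange factor gene ECT2 185 TPM, TP63 139 TPM and the kinase gene PRKCI 95.6 TPM. SOX2 and CLDN1, both on this arm, were the 2 genes not detected or nearly so.

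**Figure D4:**
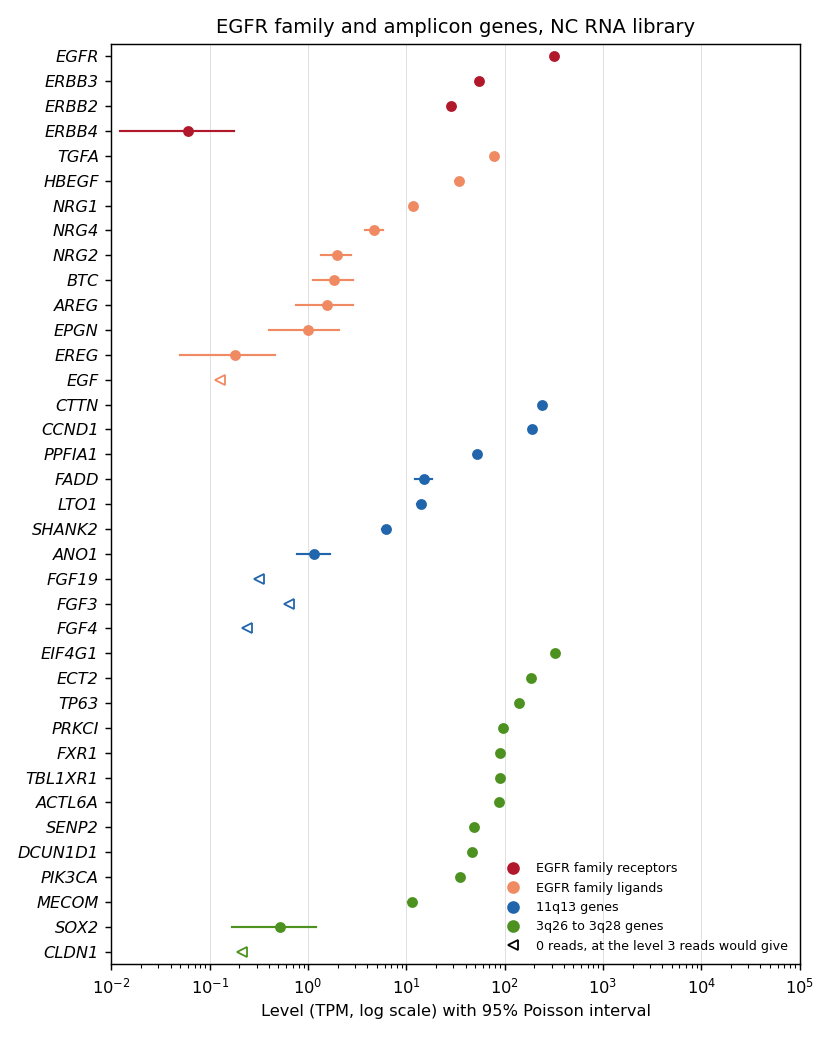
Level in TPM on a log scale, with 95% Poisson intervals, of EGFR family receptors and ligands and of genes at 11q13 and at 3q26 to 3q28 in the NC RNA library; open triangles mark genes with 0 reads at the level 3 reads would give. EGFR at 318 TPM, CTTN at 239 TPM and EIF4G1 at 325 TPM lead their lists, and each list but the receptors ends in a gene with 0 reads.

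Cell cycle genes were mostly expressed. In G1 control 21 of 22 genes had 1 or more CPM, with a median of 73.3 TPM. The cyclin genes CCND2 and CCND1 had 227 and 192 TPM, and so the line expressed both. The inhibitor genes CDKN1A and CDKN1B had 236 and 197 TPM, while CDKN1C had 0 reads. CDKN2A, often deleted in this tumour, had 80.8 TPM and RB1 79.5 TPM, both chosen after their values were seen.

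DNA replication and mitosis had the third highest median of all lists, 169 TPM, with all 26 genes at 1 or more CPM. The mitotic ligase gene UBE2C led at 617 TPM, then TOP2A for topoisomerase at 501 TPM, CCNB1 for cyclin B at 407 TPM and PCNA, the clamp of DNA polymerase, at 382 TPM. The lowest was BIRC5 with 222 reads. Telomere maintenance had all 10 genes at 1 or more CPM, with a median of 54.3 TPM. It was led by NOP10 at 355 TPM, NHP2 at 268 TPM, DKC1 at 92.7 TPM and ACD at 80.5 TPM. The lowest count there was TERT, for the catalytic chain of telomerase, with 118 reads. These lists were thus fully expressed, and cell division itself was not measured.

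The MYC network was modest. Of 13 genes 12 had 1 or more CPM, with a median of 20.3 TPM. The highest were MXI1 at 103 TPM and MXD1 at 79.8 TPM, which oppose MYC, then MLX at 48.9 TPM and MAX at 44.0 TPM. MYCN had 0 reads. MYC itself, chosen after its value was seen, had 150 reads and 12.95 TPM, less than MXI1 and MXD1.

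Of 22 genes recurrently altered in esophageal carcinoma, most of them suppressors, 21 had 1 or more CPM, with a median of 35.4 TPM. The receptor gene TGFBR2 led at 149.9 TPM, then the cadherin FAT2 at 119 TPM, AJUBA at 115 TPM and NFE2L2 at 96.7 TPM. FAT3 had 10 reads. Counts per gene carry no information on mutations.

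Notch promotes squamous differentiation, and 15 of 19 genes of its pathway had 1 or more CPM, with a median of 25.4 TPM. The coactivator gene MAML1 had 106 TPM, the targets NRARP and HES1 97.2 and 66.1 TPM, and the ligand gene JAG2 53.6 TPM. HEY2 had 2 reads, NOTCH4 5 reads, and DLL3 and HEYL 0 reads. YAP and TEAD act in basal and spreading cells, and all 19 genes of that list had 1 or more CPM, with a median of 55.1 TPM. Their target CCN1 led at 546 TPM, followed by AXL at 232 TPM, MOB1A at 169 TPM and AMOTL2 at 125 TPM.

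In the WNT pathway 16 of 21 genes had 1 or more CPM, with a median of 11.9 TPM. CTNNB1 for beta-catenin had 115 TPM, the receptor gene FZD6 101 TPM, the antagonist gene DKK1 71.4 TPM and WNT10A 49.8 TPM. LEF1 had 6 reads, NOTUM 3, LGR5 2 and WNT5A 1 read, and WNT3A had 0 reads. Genes that report WNT activity in the gut, LGR5 and NOTUM, were thus not detectable or nearly so.

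Regulators of apoptosis were expressed on both sides, 19 of 20, with a median of 42.7 TPM. MCL1, which protects mitochondria, had 519.9 TPM, and its antagonist PMAIP1 had 229 TPM. The inhibitor genes BIRC3 and BIRC2 had 161 and 149 TPM. BCL2A1 had 2 reads.

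Cancer-testis antigens are germ line proteins that tumours switch on, and the list showed an all or nothing pattern. Of 18 genes 4 had 1 or more CPM, all of the MAGEA family on chromosome X. MAGEA4 (ENSG00000147381) had 7022 reads and 591 TPM, MAGEA3 241 TPM, MAGEA6 211 TPM and MAGEA12 166 TPM. CTAG1B, CTAG2, GAGE1, MAGEA1, MAGEC1 and MAGEC2 had 0 reads, although 89.9% of the words of CTAG1B occur in another gene. MAGEA3 and MAGEA6 share 56.5% and 53.9% of their words with other genes and differ at 18 of 945 coding bases, so their separate levels rest on few sites. Bases 804 to 923 hold 6 of these, shown in capitals.
MAGEA3: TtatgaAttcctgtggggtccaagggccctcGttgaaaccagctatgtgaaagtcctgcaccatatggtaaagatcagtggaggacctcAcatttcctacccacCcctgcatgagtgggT
MAGEA6: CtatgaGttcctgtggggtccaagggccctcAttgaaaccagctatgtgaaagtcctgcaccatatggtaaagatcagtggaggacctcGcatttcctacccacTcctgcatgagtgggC

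Immune ligands and inflammatory mediators had 15 of 22 genes at 1 or more CPM, with a median of 12.7 TPM. IL1A, an alarm cytokine of keratinocytes, led at 297 TPM, and IL18 had 132 TPM. CD47, which restrains phagocytes, had 123 TPM, and CD274, for the checkpoint ligand PD-L1, had 89.4 TPM. Several chemokines were not detectable or nearly so, with 8 reads for CXCL3, 2 for CCL2, 1 for CXCL5 and 0 for CXCL1, and IDO1 and TSLP had 0 reads.

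Genes for clotting and vessel factors made by tumour cells had 7 of 8 at 1 or more CPM, with a median of 52.9 TPM. F3 (ENSG00000117525), for tissue factor, which starts clotting, had 1010.5 TPM. THBS1 for thrombospondin had 381 TPM, VEGFB 127 TPM and PDGFB 55.0 TPM. ANGPTL4 had 0 reads.

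The genes at the centre of the study were mostly expressed, 17 of 20, with a median of 37.8 TPM. This list holds HDHD5 by mistake in place of TMEM121B, the former CECR6. With TMEM121B, which had 7 reads, 16 of 20 had 1 or more CPM and the median was 32.9 TPM. DAZAP1 (ENSG00000071626) had 3170 reads and 89.3 TPM (interval 86.2 to 92.4), and ranked 2000th among protein-coding genes. Of the complex that restrains mTOR, TSC2 had 24.3 TPM, TSC1 16.2 TPM and TBC1D7 7.52 TPM, from 1843, 1100 and 241 reads. This order is per base of annotated exons, 19626, 17600 and 8300 bases, and other lengths could change it. RHEB, the target of the complex, had 39.9 TPM, MTOR 23.5 TPM and the kinase AKT1, which phosphorylates TSC2, 25.3 TPM. Per base of all annotated exons the levels of TSC2, MTOR and AKT1 were thus close. By reads TSC2 was higher, with 1843 reads against 1101 for MTOR and 1092 for AKT1. The exon lengths used were 19626 bases for TSC2, 12119 for MTOR and 11162 for AKT1. These join the exons of all transcripts of a gene, so how these levels compare per transcript is not settled.

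Reference genes of expression assays stood far higher, GAPDH at 3976 TPM and ACTB at 2591 TPM. The transcription factor genes KLF4 and TFAP2C had 54.2 and 57.9 TPM. GTF2H1 had 47.8 TPM and RAP2A 35.7 TPM. DOCK11 had 1 read, and the large genes CSMD1 and MDGA2 had 0 reads.

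Autophagy genes were broadly expressed, 37 of 40, with a median of 30.4 TPM. The cargo receptor genes SQSTM1 and OPTN had 221 and 189.5 TPM, GABARAPL1 of the LC3 family 194 TPM and RB1CC1, a scaffold of the initiating kinase, 132 TPM. MAP1LC3B, whose protein is the usual marker of autophagosomes, had 30.0 TPM, against 5 reads for MAP1LC3C and 1 read for MAP1LC3A. ULK2 had 2 reads. Transcript levels do not measure autophagic flux, which was not read from these data.

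Set side by side, 41 of the 51 lists had a median above the 7.63 TPM of all protein-coding genes, and 12 had every matched gene at 1 or more CPM. The highest medians were those of glycolysis, hemidesmosomes, DNA replication and mitosis, other epithelial identity and adherens junctions. The 10 lists under it were the keratins of upper layers and of simple epithelium, the cornified envelope, the S100 proteins, the transition factors, the mesenchymal genes, the gluconeogenesis genes, the mitochondrial genome, the EGFR ligands and the cancer-testis antigens. Since the levels of the mitochondrial genome cannot be read, the tally that leaves it out is 41 of 50 lists. The lists were written around known programs, so their high share above the median describes the choice of genes as much as the cells.

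**Figure D5:**
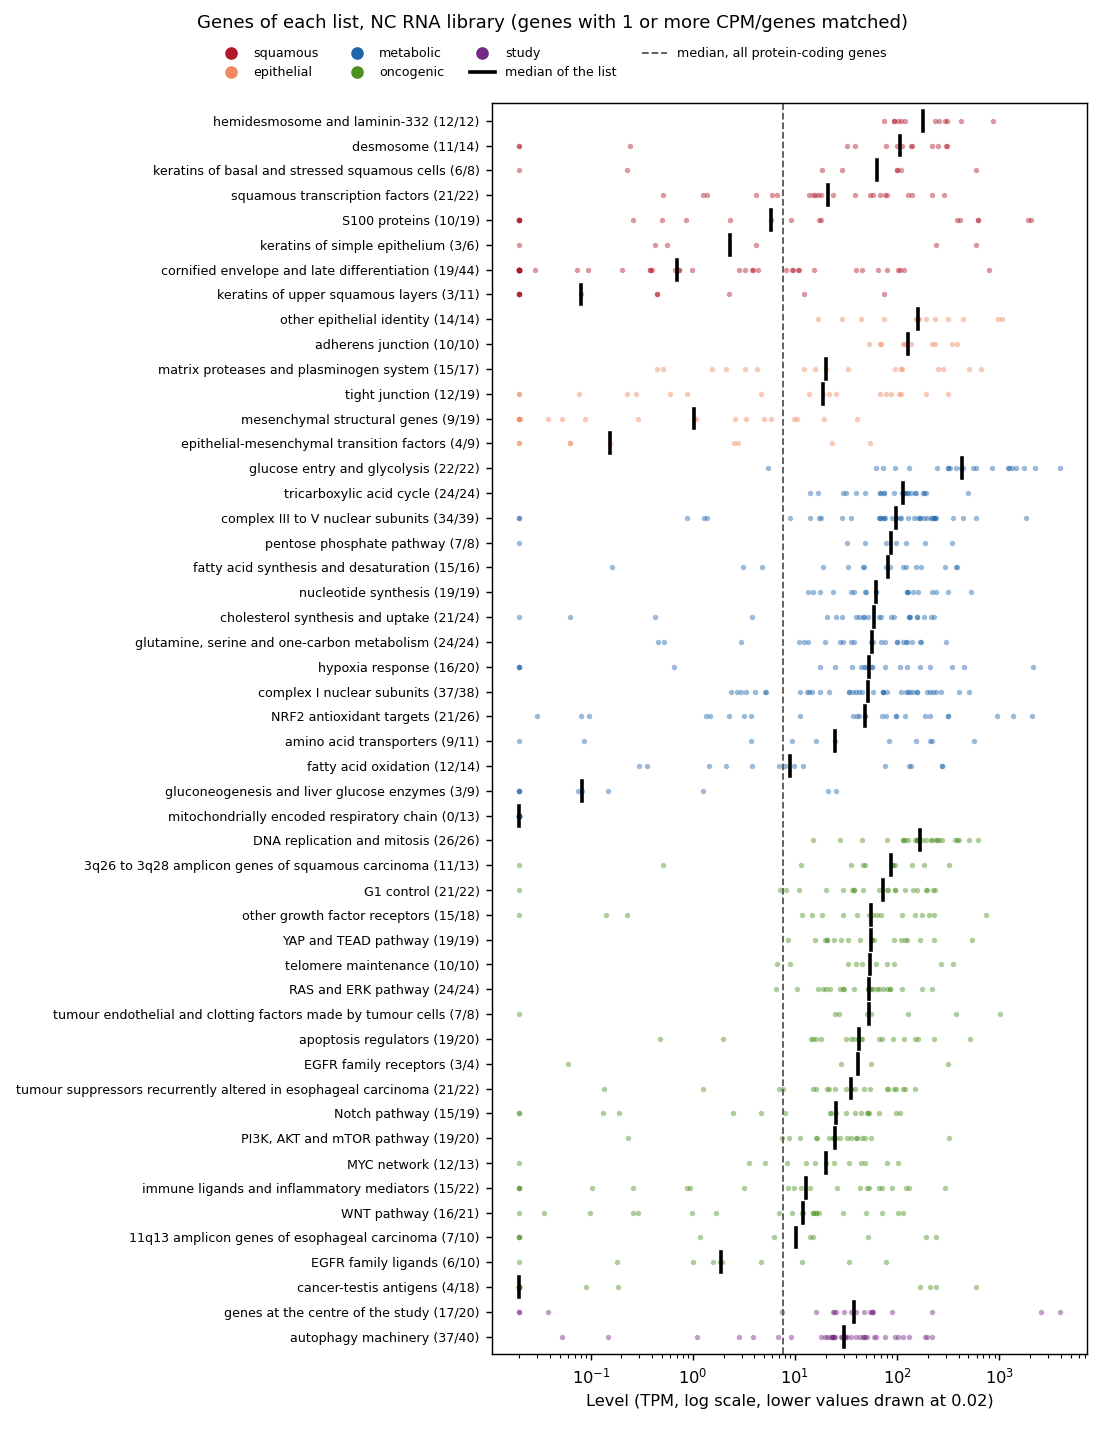
Level of every matched gene of 50 of the 51 lists in TPM on a log scale in the NC RNA library, grouped by program, with the median of each list as a black bar and the median of all protein-coding genes, 7.63 TPM, as a dashed line; the counts give genes with 1 or more CPM over genes matched. Glycolysis, with all 22 genes at 1 or more CPM, has the highest median at 429 TPM.

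Promoter composition was described for members and for some lists, without a test. Promoter sequences were those of RefSeq on GRCh38.p14, from 250 bases before to 50 after each start, and 9662 of the 11729 protein-coding members had one. Lists with fewer than 80% of genes matched were left out. The members had a median CpG ratio, the observed over the expected number of CG pairs, of 0.843, against 0.772 for the 15040 protein-coding genes with a promoter and 0.579 for all 35116 promoters of the table. For the cornified envelope it was 0.159 (37 of 44 genes matched) and for S100 proteins 0.212 (18 of 19). For glycolysis it was 0.814 (20 of 22), for the tricarboxylic acid cycle 0.835 (21 of 24) and for autophagy 0.903 (36 of 40).

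Short motifs were searched on both strands, as a description of letters and not of binding. TATAAA, the core of the TATA box, occurred in 11.5% of all promoters, in 9.36% of protein-coding genes and in 5.46% of members. Its share was 43.2% in cornified envelope genes, 38.9% in S100 genes and 10.0% in glycolysis genes. None of the 21 genes of the tricarboxylic acid cycle held it. Over the other lists kept, shares ran from 0% for fatty acid synthesis (15 of 16 matched) to 44.4% for EGFR ligands (9 of 10 matched). TGANTCA, the AP-1 motif, occurred in 7.71% of all promoters, in 5.68% of protein-coding genes and in 4.69% of members. Its share was 45.9% in cornified envelope genes, 16.7% in S100 genes and 5.00% in glycolysis genes. Over the other lists kept, shares ran from 0% for the tricarboxylic acid cycle to 30.0% for amino acid transporters (10 of 11 matched). ACGTG or GCGTG, the core letters of HIF motifs, occurred in 48.4% of all promoters, in 56.4% of protein-coding genes, in 63.3% of members, in 70.0% of glycolysis genes and in 76.5% of the hypoxia response genes (17 of 20 matched). Some other lists had shares in the same range or above, with 87.5% for telomere maintenance (8 of 10 matched), 77.8% for EGFR ligands (9 of 10) and 73.3% for fatty acid synthesis (15 of 16). Others were lower, with 28.6% for the pentose phosphate pathway (7 of 8), 29.7% for the cornified envelope and 33.3% for S100 proteins. No difference between lists was tested.

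Promoters of 4 genes at different levels are shown from 130 bases before to 20 after the start, 5′ to 3′ on the strand of the gene, with motif matches in capitals. MT2A (3690.2 TPM, GRCh38.p14, plus strand, chr16:56608454-56608603) holds a TATAAA match, a TGACTCA match and GCGTG letters on either strand. LDHA (1760.05 TPM, plus strand, chr11:18394433-18394582) holds CACGTG and CACGT. KRT5 (586 TPM, minus strand, chr12:52520375-52520524) holds no match in this window. IVL (0 reads, plus strand, chr1:152908416-152908565) holds a TATAAA and a TGAGTCA match, so a silent gene and the metallothionein gene carry the same core letters.
MT2A: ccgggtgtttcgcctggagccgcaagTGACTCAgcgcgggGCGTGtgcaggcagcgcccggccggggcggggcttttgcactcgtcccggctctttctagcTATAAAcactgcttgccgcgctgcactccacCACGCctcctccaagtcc
LDHA: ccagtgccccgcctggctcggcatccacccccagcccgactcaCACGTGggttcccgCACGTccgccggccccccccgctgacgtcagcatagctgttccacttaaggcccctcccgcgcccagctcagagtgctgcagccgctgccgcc
KRT5: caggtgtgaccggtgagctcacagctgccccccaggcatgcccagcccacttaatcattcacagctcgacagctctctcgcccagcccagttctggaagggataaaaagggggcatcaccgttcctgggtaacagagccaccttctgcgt
IVL: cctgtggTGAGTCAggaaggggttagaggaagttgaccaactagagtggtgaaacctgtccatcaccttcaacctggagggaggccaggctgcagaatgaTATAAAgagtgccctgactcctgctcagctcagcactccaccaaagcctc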

How the data were processed

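RNA of KYSE510 cells was sequenced with 1 library per condition (3 in all), and the authors deposited raw counts of reads per gene without normalization. The submitters' processing notes name TopHat2, HTSeq and the build hg19 (GRCh37), without versions, annotation release or the treatment of reads with several matches. Only the column of the NC RNA library was used. CPM was taken over its 14283061 reads. TPM used the union of annotated exons in GENCODE release 29 on GRCh38, later than the annotation counted, and 33299 of 34908 identifiers matched; the 1609 others held 0.702% of the reads, 170 had 1 or more CPM, and they have no TPM. Intervals are exact Poisson (counts) and Clopper-Pearson (shares) at 95%, from SciPy 1.17.1 with NumPy 2.4.6 and pandas 2.3.3 under Python 3.11.15; a count of 0 was given a floor of 3 reads. Figures were drawn with Matplotlib 3.10.9. Pseudogenes were aligned with BLAST 2.17.0 (megablast). The share of 50-base words or of exon bases in common with other genes was computed for each gene. The steps were tested on simulated data. No test was made, since there is 1 library.

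The members and the 62 gene lists (973 genes, 962 matched; 51 of programs and 11 of markers) were chosen with earlier results of these data known. Named are the 15 nuclear genes with the highest TPM; in each list the 4 highest by TPM and up to 6 under 1 CPM, those with the lowest counts in list order; every keratin; all genes at the centre of the study, of the EGFR receptors and at 11q13; and the highest member of each marker list. Some genes that meet this rule, and 1 list, are not named. Alternatives were other thresholds, lengths and scalings.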

Additional observations from a re-analysis of the deposited data

How the results depend on the processing

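Thresholds of 0.5 and 5 CPM gave 13765 and 10991 genes, 1 or more TPM gave 13583, and a Poisson lower limit at or above 1 CPM gave 12380, all within 1.5 times the 12911 reported. Without processed pseudogenes, an alternative chosen after seeing the data, the number was 12199. Leaving mitochondrially encoded genes out of the library total or of the TPM scaling changed nothing, as they had 0 reads.

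The shares of the 10, 100 and 1000 most read genes were 3.12%, 12.4% and 42.2% over protein-coding genes, and 3.09%, 12.3% and 41.9% without processed pseudogenes (chosen after seeing the data).

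The median level of protein-coding members, 29.2 TPM, became 30.95 with the longest transcript, 34.5 with the coding length and 41.9 CPM without length. After seeing the data, scaling over protein-coding genes gave 39.9 and adding pseudogene reads to the closest coding gene gave 37.5.

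The number of lists above the protein-coding median, 41 of 51, was 40 without length and 39 without genes that share 20% or more of their words or exon bases (chosen after seeing the data), and 41 otherwise. Without the mitochondrially encoded genes it was 41 of 50 (chosen after seeing the data). The medians of squamous, epithelial, metabolic and oncogenic genes over that of all protein-coding genes were 1.39, 2.59, 9.04 and 4.64. They were 1.13, 2.79, 9.36 and 4.44 with the longest transcript; 0.924, 2.81, 10.6 and 5.12 with the coding length; 0.756, 3.26, 7.89 and 5.61 without length; 1.36, 2.53, 8.94 and 4.55 with pseudogene reads added; and 1.44, 1.84, 6.85 and 3.51 without genes that share 20% or more; and 1.38, 2.57, 9.54 and 4.62 without mitochondrially encoded genes. The squamous median thus fell under that of all genes with the coding length and without length; the cause was not tested.

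At 5 CPM, 2 of 51 lists fell by over 1.5-fold in members, the cornified envelope (12 in place of 19) and the mesenchymal genes (5 in place of 9). Of 51 list medians, 27 moved over 1.5-fold without length and 18 with the coding length. Of 279 named genes, 215 left their Poisson interval without length, 204 with the coding length and 173 with the longest transcript.

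With 1 library per condition, samples could not be paired. Depth limits genes near 15 reads, and levels of genes with close copies are uncertain in both directions.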
